A study of Homo sapiens with 8 samples.

Results

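In all, 6 genes of bone morphogenetic protein (BMP) signalling were followed, the 4 ligand genes BMP2, BMP4, BMP6 and BMP7 and the 2 antagonist genes NOG and GREM1, in H3K27me3 ChIP-seq of human lymphoma B cells. They were chosen by name, and each was given an hg19 span rounded to the nearest 1 kb and extended by 10 kb on each side. Islands, the enriched stretches reported by the SICER peak caller, were taken wherever they touched an extended span, which gave 13 of 47432 islands in LY19Y646F and 22 of 58144 in LY19WT. LY19Y646F cells expressed the mutant EZH2-Y646F constitutively from a CMV promoter, and LY19WT cells carried wild-type EZH2. Both were untreated immortalized lines, each with 3 ChIP libraries and 1 input library, and the labels do not say whether either line is a clone. EZH2 is the methyltransferase of Polycomb repressive complex 2 that writes H3K27me3, and the comparison asked how that mark differed between the lines at these genes. Replicates were merged before island calling, so each value describes 1 list per line. The lines could not be tested against each other, and a difference given here has no replicate check. The files hold no expression data, so neither the level of these genes nor B-cell markers could be examined.

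BMPs are secreted dimers of the transforming growth factor beta superfamily that bind type I and type II serine/threonine kinase receptors and act through SMAD1, SMAD5 and SMAD9 with SMAD4. BMP2 and BMP4 form one branch of close relatives, and BMP6 and BMP7 belong to another. Noggin, encoded by NOG, and Gremlin 1, encoded by GREM1, bind BMP dimers outside the cell and keep them from their receptors. Genes of this kind, with CpG-rich promoters and roles in development, are textbook targets of Polycomb in cells that do not use them.

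Every one of the 6 extended spans held an island in LY19WT, and 4 of 6 did in LY19Y646F, where BMP4 and GREM1 had none. The background was taken from 80914 tiles of 34.5 kb, the median length of the extended spans, laid end to end over the autosomes. Of these tiles, 32.6% held an island in LY19Y646F and 39.7% in LY19WT. The share grew with tile length. For 22 kb tiles, the length of the NOG span, it was 28.6% in LY19Y646F and 36.1% in LY19WT. For 175 kb tiles, the length of the BMP6 span, it was 52.7% in LY19Y646F and 56.7% in LY19WT. Islands covered 61.2% of the 412 kb of extended spans in LY19Y646F and 41.3% in LY19WT, against autosomal means of 13.7% in LY19Y646F and 19.8% in LY19WT. That order rested on BMP6, the longest span. Without it the shares were 40.8% in LY19Y646F and 49.6% in LY19WT. By gene, the covered share was higher in LY19Y646F at BMP6, NOG and, by 1.19 percentage points, BMP7, and lower at BMP2, BMP4 and GREM1. These are 3 of 6 members in each direction, where 20.1% of tiles were covered more in LY19Y646F and 30.6% were covered less. Tile shares include the tiles covered equally in both lines, whereas no member was covered equally. Of the tiles that differed, 16275 were covered more in LY19Y646F and 24789 were covered less. With islands limited to an FDR of at most 1e-05, BMP7 changed sides and the members divided as 2 higher and 4 lower. In the 200 kb flanks of the 6 genes pooled, coverage was 29.1% in LY19Y646F and 37.1% in LY19WT.

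**Figure D1:**
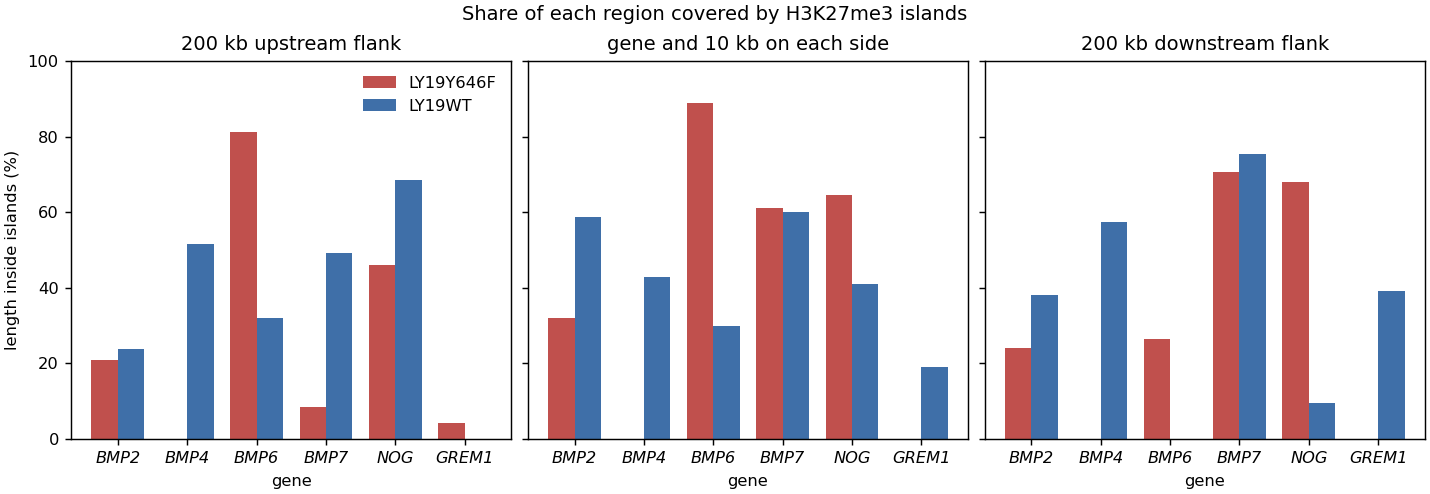
Percentage of length inside H3K27me3 islands for each gene (x axis), with LY19Y646F bars left of LY19WT bars, in the 200 kb upstream flank, the gene with 10 kb on each side, and the 200 kb downstream flank. BMP4 had no LY19Y646F bar in any of the panels, and in the central panel BMP6 stood at 88.9% in LY19Y646F against 29.9% in LY19WT.

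Input reads varied along the genome and between the lines, and they varied around these genes. Relative input is given here as the median input density of islands in the 10 Mb bin that holds the gene, divided by the autosomal median of the same line, 8.42 reads per kb in LY19Y646F and 8.41 in LY19WT. It was 1.47 in LY19Y646F around BMP6, 1.22 around BMP2, 1.19 around BMP7, 1.04 around NOG, 0.833 around GREM1 (26 islands in the bin) and 0.774 around BMP4 (15 islands). In LY19WT the 6 bins stood between 0.975 and 1.02. The gene most covered in LY19Y646F thus lay in the bin with the highest input of the 6. The genes without an island lay in the bins with the lowest. Between these, the LY19Y646F covered share was 64.5% at NOG, 61.2% at BMP7 and 31.9% at BMP2, an order opposite to their relative input in the 10 Mb bins. That order did not hold closer to the genes. Over each extended span with its 200 kb flanks, relative input in LY19Y646F was 1.33 at BMP7, 1.11 at BMP2 and 1.09 at NOG. Whether the number of DNA copies, which input reads follow, had a part in the island calls was not tested.

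**Figure D2:**
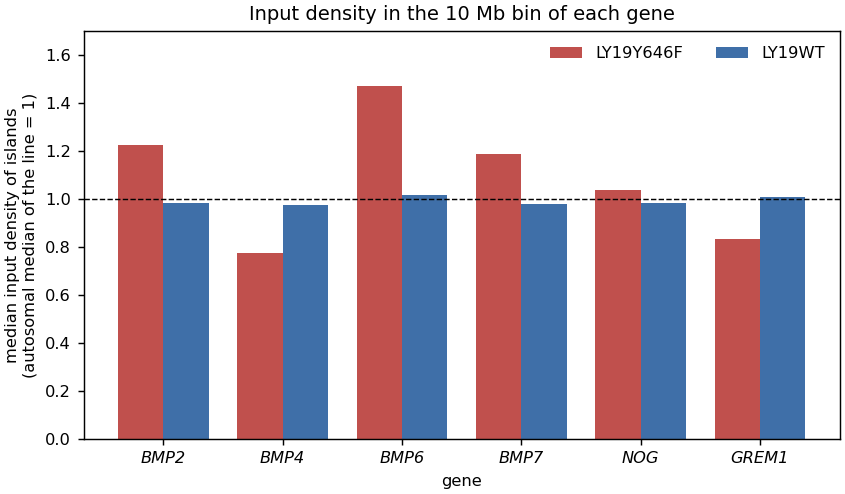
Median input reads per kb of islands in the 10 Mb bin of each gene (x axis), divided by the autosomal median of the line, which is the dashed line at 1; LY19Y646F bars stand left of LY19WT bars. LY19Y646F ran from 0.774 at BMP4 to 1.47 at BMP6, while LY19WT stayed between 0.975 and 1.02.

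BMP2, on chromosome 20 (6749001 to 6761000, hg19), encodes a ligand known for inducing bone and cartilage. Islands covered 31.9% of its extended span in LY19Y646F and 58.8% in LY19WT. In LY19Y646F there were 2 islands. One lay 6.0 kb upstream of the gene start, 2.2 kb wide with 104 ChIP and 19 input reads. The other began 10.4 kb downstream of the start, near the end of the gene, and ran for 8.0 kb with 383 ChIP and 75 input reads. LY19WT also had 2 islands, and the main one was wider. It ran for 29.8 kb from 6753401 to 6783200, from inside the gene to well beyond its end. It held 1882 ChIP reads on 216 input reads, a deposited fold of 2.84 by the authors' calculation. The second LY19Y646F island lay wholly within it. Over the gene alone, without the extension, the covered share was 13.3% in LY19Y646F and 63.3% in LY19WT. The difference over the extended span, -26.9 percentage points, was reached or passed downward by 18.2% of 32 kb tiles over all autosomes and by 9.36% of those on chromosome 20. Flanks differed less, with 20.9% of the upstream 200 kb covered in LY19Y646F and 23.8% in LY19WT, and 24% of the downstream 200 kb covered in LY19Y646F and 38.1% in LY19WT.

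BMP4, on the minus strand of chromosome 14 (54416001 to 54424000), is the closest relative of BMP2 and patterns the embryonic mesoderm. LY19Y646F had no island in its extended span or in either 200 kb flank. The nearest island of that list lay 294.8 kb upstream of the gene start, and the nearest on the other side lay 2299.6 kb away. LY19WT covered 42.9% of the extended span with 2 islands. The first ended 0.2 kb upstream of the gene start and was 4.8 kb wide, with 275 ChIP and 39 input reads. The second lay past the gene's other end, 8.0 kb wide with 463 ChIP and 66 input reads. Both had authors' folds near the LY19WT median of 2.28, at 2.29 and 2.28. Neither island was left when LY19WT islands were dropped, highest p-values first, until both lists covered an equal length. The 8 kb of the gene itself held no island in either line. LY19WT flanks were covered to 51.6% upstream and 57.3% downstream, by 12 and 16 islands. Across the whole empty stretch of LY19Y646F, 2594.4 kb from 52124401 to 54718800, LY19WT had 60 islands over 20% of the length. Of the 28 kb tiles of chromosome 14, 87.9% held no island in LY19Y646F and 65.3% held none in LY19WT, so an empty span was the common state of this chromosome in both lines and more common in LY19Y646F. The difference over the extended span, -42.9 percentage points, was reached or passed downward by 13.0% of 28 kb tiles over all autosomes and by 15.7% of those on chromosome 14. A stretch without islands can hold the mark below the calling limit. For scale, 5% of the listed islands had ChIP densities under 35.4 reads per kb in LY19Y646F and under 45.6 in LY19WT.

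BMP6, on chromosome 6 (7727001 to 7882000), encodes the ligand known for inducing hepcidin in the control of iron. It was covered almost end to end in LY19Y646F, to 88.9% of the extended span, against 29.9% in LY19WT. Within the gene itself the shares were 95.6% in LY19Y646F and 33.8% in LY19WT. LY19Y646F had 3 islands here. One of 88.0 kb began 0.6 kb after the gene start with 5436 ChIP and 1114 input reads, and one of 60.2 kb followed after a gap of 0.8 kb with 3353 ChIP and 704 input reads. They ranked 51st and 136th by width among all islands of that list. The third, 7.8 kb wide, ended 2.6 kb upstream of the gene start. LY19WT had 6 islands of 4.0 to 18.6 kb in the first 83.8 kb of the gene, and every base of them lay inside LY19Y646F islands. No LY19WT island reached the rest of the gene or its downstream flank. Authors' folds of the 3 LY19Y646F islands were 1.86, 1.82 and 1.45 in the order given, below the LY19Y646F median of 1.90. Those of the 6 LY19WT islands ran from 1.82 to 2.61, on both sides of the LY19WT median of 2.28. Coverage of the upstream flank was 81.3% in LY19Y646F and 32.1% in LY19WT, and coverage of the downstream flank was 26.4% in LY19Y646F and 0% in LY19WT. A difference of 58.97 percentage points or more was found in 1.02% of 175 kb tiles over all autosomes and in 2.66% of those on chromosome 6. Input density over the touching islands ran from 11.7 to 13.2 reads per kb in LY19Y646F and from 6.63 to 9.78 in LY19WT, so the broad LY19Y646F islands also had more input reads per kb.

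**Figure D3:**
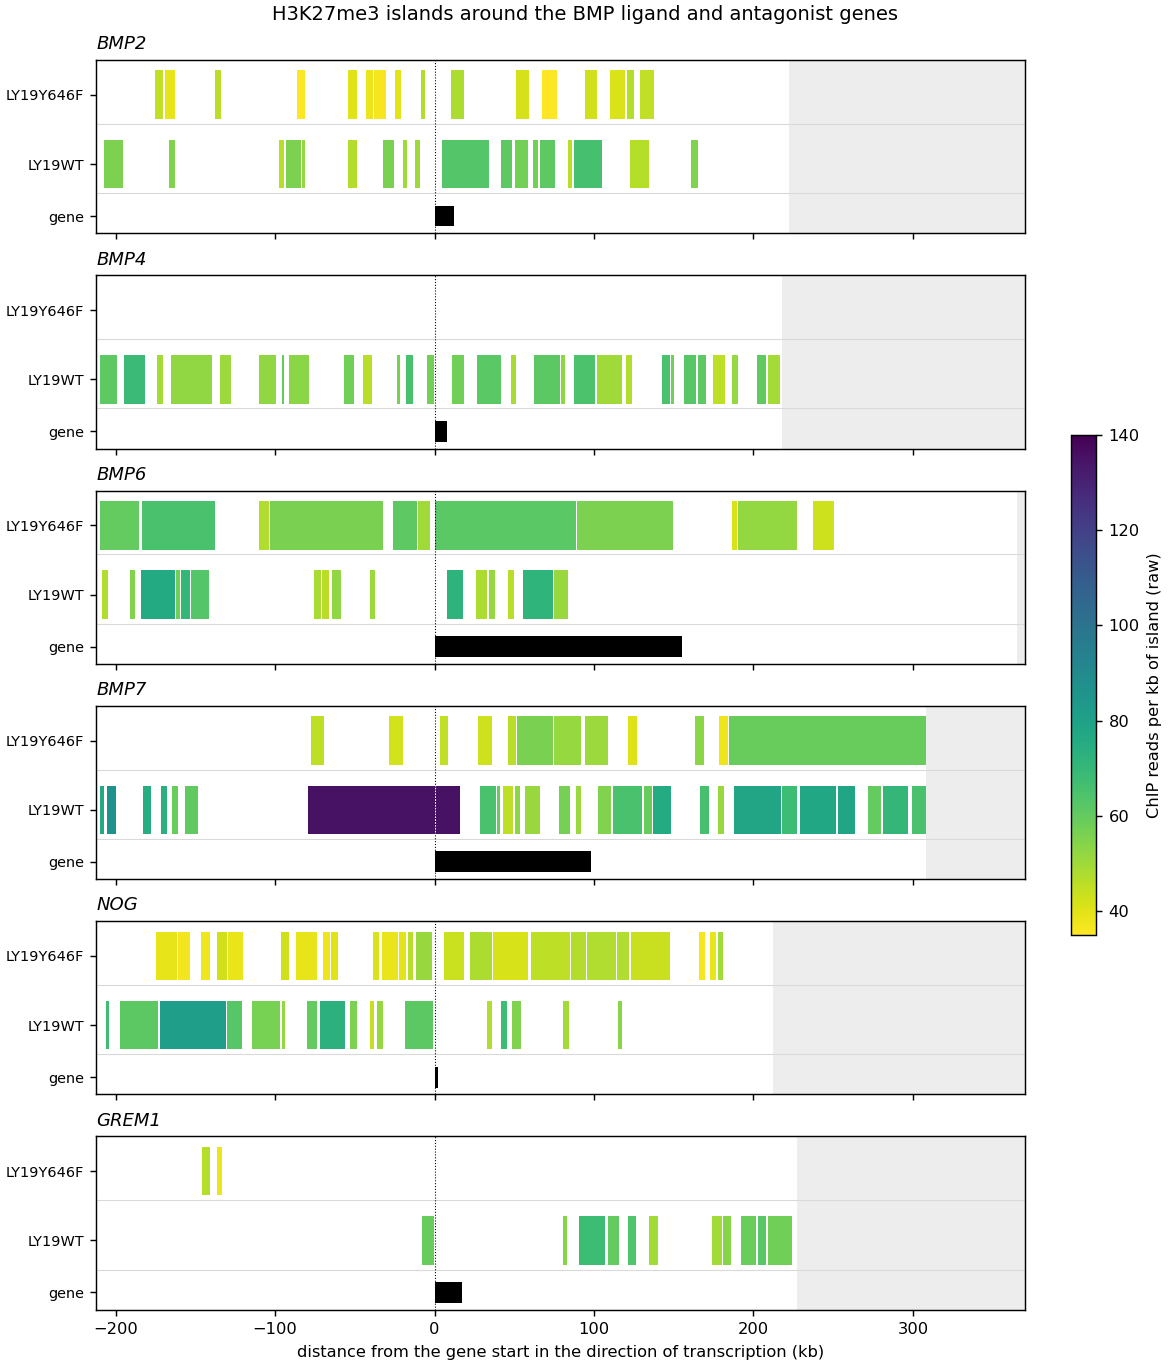
H3K27me3 islands of LY19Y646F (upper row) and LY19WT (lower row) around each gene (black bar), by distance from the gene start in kb in the direction of transcription; colour gives raw ChIP reads per kb of island, and grey marks what lies beyond the 200 kb flank. The pair of LY19WT islands at the BMP7 start was the darkest on the map at 135 reads per kb, and the LY19Y646F row of BMP4 was empty.

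BMP7, on the minus strand of chromosome 20 (55744001 to 55842000), encodes a ligand needed for kidney and eye development. Its covered share hardly differed, 61.2% in LY19Y646F and 60% in LY19WT, but the densest LY19Y646F island lay far inside the gene and the densest LY19WT islands at its start. In LY19WT, 2 islands flanked the gene start and were separated by a gap of 1.0 kb. The upstream one spanned 79.6 kb (55842001 to 55921600) with 10759 ChIP reads (95% Poisson interval 10557 to 10964) and 765 input reads (712 to 821), an authors' fold of 4.58. The one inside the gene spanned 15.0 kb (55826001 to 55841000) with 2028 ChIP reads (1941 to 2118) and 136 input reads (114 to 161), a fold of 4.85. Both held 135 ChIP reads per kb. Only 63 of the 58144 LY19WT islands were as dense as the wider one, and only 5 of the 272 that were at least as wide were also at least as dense, itself included. Over the same 95.6 kb, LY19Y646F had 3 islands that covered 23.2%, with 978 ChIP and 284 input reads in all, a density of 44.1 ChIP reads per kb. This stretch was marked out by the 2 dense LY19WT islands themselves. High LY19WT cover and density there follow from that choice, so the contrast describes the stretch and is not a test. Their authors' folds were 1.27 to 1.36, below the LY19Y646F median of 1.90. Further into the gene and at its 3′ end the lines were closer in raw density. LY19Y646F had its densest BMP7 island there, 22.4 kb wide with 1261 ChIP and 224 input reads, at 56.3 ChIP reads per kb and a fold of 2.15. The other 8 LY19WT islands of the extended span had 45.3 to 65.3 ChIP reads per kb. Ranks by raw density within each list differed more. Of all LY19Y646F islands, 1.41% were at least as dense as that 22.4 kb island. For the densest of these 8, the share of LY19WT islands was 25.4%. Ranked by authors' fold, the 22.4 kb island was equalled or passed by 29.5% of LY19Y646F islands. By the same measure, the densest of the 8 was equalled or passed by 49.5% of LY19WT islands. Of the covered length, 60.7% of that in LY19Y646F was shared with LY19WT, and 61.9% of that in LY19WT was shared with LY19Y646F. Islands took up 8.5% of the upstream flank in LY19Y646F and 49.3% in LY19WT, and 70.6% of the downstream flank in LY19Y646F and 75.4% in LY19WT. The widest island reaching into that downstream flank measured 156 kb in LY19Y646F, where the widest in LY19WT measured 29.2 kb. The sign of the small difference in covered share depended on the processing: it was -7.80 percentage points at an FDR of at most 1e-05, -5.93 with islands joined across 5 kb and -30.4 with the span extended by 50 kb, but 7.14 without the extension and 31.7 with the lists made equal in covered length.

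NOG, on chromosome 17 (54671001 to 54673000), is a short gene without introns that encodes Noggin, an antagonist of BMP2, BMP4 and BMP7. It lay in a gap between islands in both lines. Upstream, a LY19Y646F island of 9.8 kb ended 1.6 kb before the gene start, with 500 ChIP and 77 input reads (authors' fold 2.48). A LY19WT island of 17.8 kb ended 1.0 kb before the start, with 1092 ChIP and 130 input reads (authors' fold 2.73). The LY19Y646F island lay wholly inside the LY19WT one. Downstream the lines parted. LY19Y646F resumed 6.2 kb after the gene start with an island of 12 kb holding 523 ChIP and 118 input reads, while the next LY19WT island lay 32.8 kb away. The covered share of the extended span was therefore 64.5% in LY19Y646F and 40.9% in LY19WT. A difference of 23.6 percentage points or more was found in 10.7% of 22 kb tiles over all autosomes and in 19.3% of those on chromosome 17. The flanks ran in opposite directions. Upstream, 45.9% was covered in LY19Y646F and 68.5% in LY19WT, and downstream, 67.9% was covered in LY19Y646F and 9.4% in LY19WT. NOG is the gene of this group where the 10 Mb input of LY19Y646F was nearest to its autosomal median, at 1.04.

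GREM1, on chromosome 15 (33010001 to 33027000), encodes Gremlin 1, a cystine-knot antagonist of the DAN family that binds BMP2 and BMP4. LY19Y646F had no island in the extended span, and the nearest ended 133.0 kb upstream of the gene start. LY19WT had 1 island, 7.0 kb wide, which ended 0.6 kb before the gene start with 416 ChIP reads (377 to 458) and 56 input reads (42.3 to 72.7) and an authors' fold of 2.42. It covered 18.9% of the extended span, a share that 31.3% of 37 kb tiles over all autosomes and 35% of those on chromosome 15 reached in LY19WT. No island entered the gene in either line, and the LY19WT island too was lost when the lists were made equal in covered length. Islands took up 4.2% of the upstream flank in LY19Y646F and 0% in LY19WT, and 0% of the downstream flank in LY19Y646F and 39.1% in LY19WT. The stretch without LY19Y646F islands around GREM1 ran for 1047.4 kb from 32877001 to 33924400, and LY19WT had 58 islands there over 51.1% of it. On chromosome 15, 80.2% of 37 kb tiles held no island in LY19Y646F and 56.2% held none in LY19WT. The difference over the extended span, -18.9 percentage points, was reached or passed downward by 21.5% of 37 kb tiles over all autosomes and by 32.1% of those on chromosome 15.

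Gene starts were compared with the islands at their rounded positions. In each line 0 of 6 rounded gene starts fell in an island. By comparison, 13.7% of autosomal 200 bp windows were inside islands in LY19Y646F and 19.8% in LY19WT. With so few genes, 0 of 6 does not set these starts apart from those shares. In LY19WT an island edge lay within 1.0 kb of the start at 4 of 6 genes, BMP4, BMP7, NOG and GREM1, with the nearest edge on the upstream side each time and at BMP7 another edge 1.0 kb downstream. In LY19Y646F this held for 1 of 6, BMP6, where the island began 0.6 kb into the gene. Of all autosomal 200 bp windows, 3.09% lay outside islands with an edge this close in LY19Y646F and 3.79% in LY19WT. That share is over positions, not over gene starts, and the difference between the lines at these 6 genes was not tested. At BMP4 and BMP7 the LY19WT edge was as close as the rounding of the spans, so these coordinates do not settle whether the start itself lay in the gap. At NOG the LY19WT edge lay at the 1.0 kb limit itself. It lay at 0.6 kb at GREM1 in LY19WT and at BMP6 in LY19Y646F. The counts of 4 and 1 can therefore shift with the rounding.

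Promoter sequence from RefSeq (GRCh38.p14) was on hand for 3 of 6 genes, BMP4, BMP6 and GREM1. The sequences are shown because island edges lay close to these rounded starts. The edges were within 1.0 kb in LY19WT at BMP4 and GREM1 and in LY19Y646F at BMP6. Positions were not converted between builds, so whether the printed bases lay inside or outside islands was not examined. The 250 bases before the most upstream start in the table are printed 5′ to 3′ on the coding strand, in lower case with each CG dinucleotide in capitals. The strand is minus on chromosome 14 for BMP4, plus on chromosome 6 for BMP6 and plus on chromosome 15 for GREM1.
BMP4: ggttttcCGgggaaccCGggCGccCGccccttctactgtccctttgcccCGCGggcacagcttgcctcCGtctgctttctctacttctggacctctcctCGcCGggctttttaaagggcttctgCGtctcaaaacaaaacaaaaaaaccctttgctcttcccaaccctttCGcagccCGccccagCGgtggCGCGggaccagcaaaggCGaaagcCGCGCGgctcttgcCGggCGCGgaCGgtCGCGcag
BMP6: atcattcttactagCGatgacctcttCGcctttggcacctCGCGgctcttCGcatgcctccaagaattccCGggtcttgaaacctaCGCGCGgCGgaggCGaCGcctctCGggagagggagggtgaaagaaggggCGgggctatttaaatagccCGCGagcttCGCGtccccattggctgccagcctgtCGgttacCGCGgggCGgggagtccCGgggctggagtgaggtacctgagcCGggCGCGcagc
GREM1: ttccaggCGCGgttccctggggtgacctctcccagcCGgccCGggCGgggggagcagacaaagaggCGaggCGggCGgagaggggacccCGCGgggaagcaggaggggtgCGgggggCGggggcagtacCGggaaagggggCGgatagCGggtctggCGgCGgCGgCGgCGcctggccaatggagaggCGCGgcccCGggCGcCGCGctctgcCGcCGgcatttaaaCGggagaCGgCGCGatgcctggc
The dinucleotide CG, which reads the same on both strands, occurred 25 times at BMP4, 26 times at BMP6 and 32 times at GREM1. The median of 27305 promoters of the same length was 10, and 93.6% held at least 1. As many CG dinucleotides as at BMP4 were found in 21.1% of promoters, as at BMP6 in 19% and as at GREM1 in 9.24%. GC content was 63.6% at BMP4, 64.4% at BMP6 and 76.8% at GREM1, and the median promoter had 57.6%. All 3 windows were CG-rich, and they belonged to genes with and without islands in LY19Y646F alike.

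Enrichment over input was lower in LY19Y646F at each of the 4 genes with islands in both lines. It is given as ChIP over input reads summed over the touching islands and divided by the library ratio of the list, 2.62 in LY19Y646F and 3.07 in LY19WT. Intervals are exact binomial at 95% and cover counting error only. BMP7 stood at 1.79 (1.65 to 1.93) in LY19Y646F and 3.76 (3.56 to 3.98) in LY19WT. BMP2 was 1.98 (1.58 to 2.49) in LY19Y646F and 2.75 (2.40 to 3.15) in LY19WT. The values for NOG were 2.0 (1.72 to 2.35) in LY19Y646F and 2.73 (2.28 to 3.30) in LY19WT. At BMP6 they were 1.82 (1.74 to 1.92) in LY19Y646F and 2.30 (2.09 to 2.54) in LY19WT. On the log2 scale the differences, LY19Y646F minus LY19WT, were -1.08 at BMP7, -0.47 at BMP2, -0.45 at NOG and -0.33 at BMP6. The list medians of the authors' fold, 1.90 in LY19Y646F and 2.28 in LY19WT, also differed in this direction. Scaling ChIP density by the total ChIP reads in islands turned all 4 signs, to between 0.027 at BMP7 and 1.04 at BMP6. With scaling to the median input density in place of local input, BMP6 turned to 0.16 and the other 3 stayed negative, BMP7 at -0.85. In each of these scalings BMP7 had the lowest value of the 4 genes. The islands of a gene differ in extent between the lines, so these ratios do not compare the same bases.

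**Figure D4:**
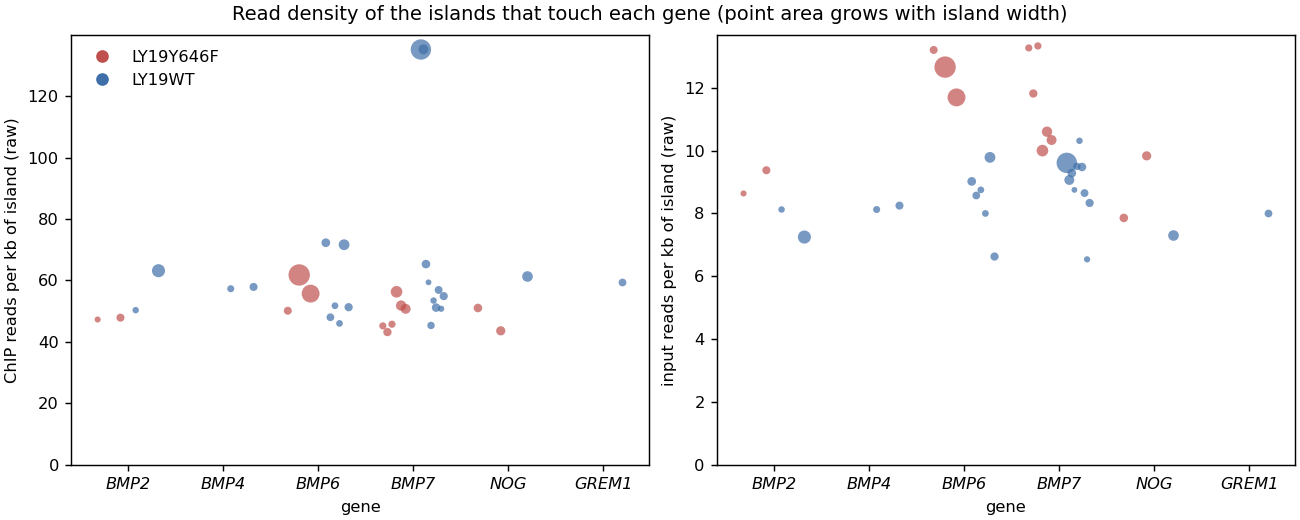
Raw ChIP reads per kb (left) and raw input reads per kb (right) of every island that touches an extended span, by gene (x axis), with LY19Y646F points left of LY19WT points and point area growing with island width. The 2 LY19WT islands at the BMP7 start overlap at 135 ChIP reads per kb, all others lie between 43.2 and 72.3, and the highest input densities are those of LY19Y646F at BMP6 and BMP7.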

How the data were processed

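H3K27me3 ChIP-seq was done in LY19Y646F and LY19WT cells with a Cell Signaling antibody on sonicated, formaldehyde-fixed chromatin, per the labels' protocols. The authors used Bowtie2 2.2.9, SAMtools 1.3.1, SICER and bedtools with build hg19, per the submitters' processing notes; for the last 2 no version was given in those notes. Per the labels, SICER set the merged replicates against the line's own input with an FDR limit of 0.001. The lists as analysed here may lack a few islands. The deposited island counts are raw ChIP and input reads. The deposited fold is a linear ratio, ChIP over input divided by 1 constant per list. The authors' p-value and FDR per island were deposited beside these and move with depth and DNA abundance. Islands held 17410034 ChIP and 3527109 input reads in LY19Y646F, and 37556030 and 4949411 in LY19WT.

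Ends in the files are inclusive, so positions are 1-based hg19 with both ends included. Covered shares, gaps, flanks and tiles were computed in Python 3.11.15 (scipy 1.17.1, pandas 2.3.3, numpy 2.4.6; figures in matplotlib 3.10.9) and tested on simulated lists. A covered length has no counting interval. Counts are of whole islands, also where an island extends past a span. Gene strands of BMP4, BMP6 and GREM1 came from the RefSeq promoter table, the others from general knowledge. All 6 members were named. The members and lists were chosen with earlier results of these data known. Other genes of the pathway were not analysed here, because the gene table was on GRCh38.p14 and positions were not converted. Alternatives covered FDR, joining, span, flank, list length, high-input islands and scaling.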

Additional observations from a re-analysis of the deposited data

How the results depend on the processing

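Covered share in LY19Y646F minus LY19WT over the 6 extended spans was 19.95 percentage points. It was 17.4 at an FDR of at most 1e-05, 16.0 at 1e-10, 18.4 with islands joined across 5 kb, 33.2 without the extension, 5.90 with 50 kb, and 37.2 when LY19WT islands were dropped, highest p-values first, until both lists covered the same length. Leaving out 1 gene, added after seeing the data, gave 23.9 without BMP2, 24.5 without BMP4, 27.5 without BMP7, 23.8 without GREM1 and a reversed -8.86 without BMP6. In the flanks the difference was -7.91, and it was -10.9 at 1e-10, -10.2 with joining, -4.23 for 100 kb, -10.5 for 500 kb, and a reversed 3.22 at equal list length. The count of members with an island, 4 in LY19Y646F and 6 in LY19WT, also depended on the setting. Without the extension it was 3 in each line, and at equal list length it was 4 in each line. At a minimum cover of 50% it was 3 in LY19Y646F and 2 in LY19WT. Members lower in LY19Y646F numbered 1 without the extension and 1 at equal list length, which left BMP4 and GREM1 without a LY19WT island. The enrichment difference (log2) turned to 0.73 at BMP2, 1.04 at BMP6, 0.027 at BMP7 and 0.72 at NOG when scaled by total ChIP reads in islands, and to 0.16 at BMP6 when scaled by median input density. The cause was not tested. At BMP2, BMP6 and NOG the sign of the covered share difference held in every alternative run, except that NOG without the extension had no island in either line. Leaving out replicates was not possible, because they were merged before calling. No paired analysis was possible because each line has 1 merged list.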
